A study of Mus musculus with 2 samples.

Results

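The erythropoietin receptor gene Epor, the stem cell factor receptor gene Kit, the Janus kinase genes Jak1, Jak2 and Jak3, the inhibitor genes Socs1, Socs2, Socs3 and Cish, and the kinase gene Pim1 were followed in an open chromatin map of mouse spleen. These 10 genes of 21938 protein-coding genes were taken by name from the GENCODE M21 annotation. Every DNase peak and footprint in each gene body widened by 30 kb on either side was collected, which gave 83 peaks of 48286 in replicate 1 and 50 of 28837 in replicate 2. The samples were spleens of 14-day-old males of the F1 strain B6CASTF1/J, with no treatment named in the labels. The design held 1 group, with tissue of 3 males as replicate 1 and of 1 male as replicate 2. No other condition was measured, so the replicates were described side by side and no test between groups was made.

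Erythropoietin binds its receptor on red cell progenitors and turns on the receptor-bound kinase JAK2, which phosphorylates the transcription factor STAT5. STAT5 dimers enter the nucleus and raise, among others, the genes of the SOCS family (Cish, Socs1, Socs2, Socs3), whose proteins then damp the same receptors, and the survival kinase gene Pim1. KIT is a receptor tyrosine kinase of early progenitors and mast cells, JAK1 serves many cytokine receptors, and JAK3 pairs with the common gamma chain of lymphocyte cytokine receptors. The young mouse spleen makes red cells and also holds lymphocytes, macrophages and stroma. In whole tissue, fewer cells of a type and less open chromatin per cell cannot be told apart.

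DNase I cuts DNA where it is not wrapped in nucleosomes, and the deposited lists give each region of dense cutting (a peak) 1 signal value by the authors, with a scale that was not given in the sources used here. A footprint is a short protected stretch inside such a region. The median signal of all peaks was 1.49 in replicate 1 and 1.79 in replicate 2. The spleen label was checked with promoter peaks of marker genes. A peak was called in both replicates at 5 of 6 erythroid, 4 of 5 B cell, 2 of 4 T cell and 1 of 5 macrophage markers. The share over all protein-coding genes was 51.1%, which the T cell and macrophage markers did not exceed. None of 3 hepatocyte and 3 cardiac muscle markers had one in either replicate. Of 3 neuronal markers, Syn1 had one in both replicates (2.01 and 1.14).

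A promoter was taken as 1000 bases either side of an annotated start site of the gene. A promoter peak was called in both replicates at 9 of the 10 genes, against 51.1% of all protein-coding genes. Jak3 was the exception, with a signal of 1.68 in replicate 1 and no peak in replicate 2. The median promoter signal of the 10 genes, taking each gene's strongest peak, was 8.34 in replicate 1 and 5.39 in replicate 2, against 1.29 and 0.838 over all genes, where a gene without a peak counts as 0. Among all genes with a peak in both replicates the medians were 7.94 and 4.82. Relative to those medians the genes fell on both sides: 5 lay above them in each replicate (Pim1, Jak1, Epor, Jak2 and Cish) and 4 lay below in each (Socs1, Socs2, Jak3 and Kit).

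**Figure D1:**
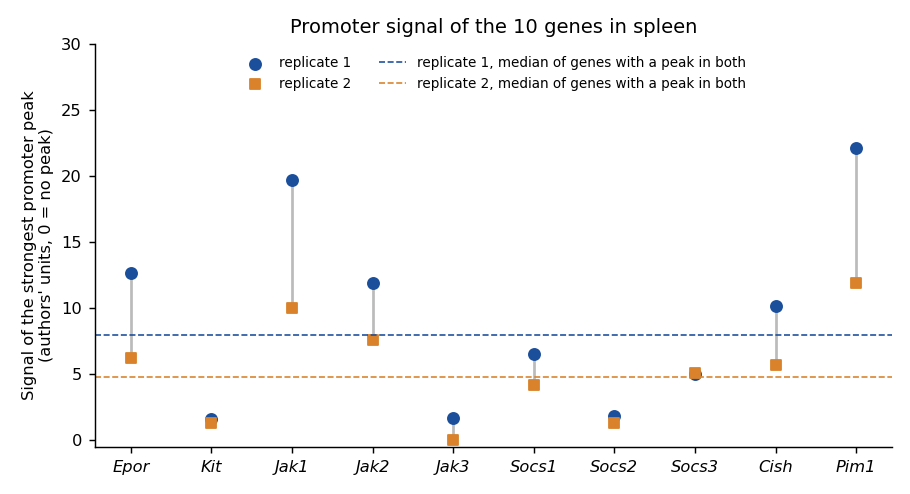
Signal of the strongest promoter peak of each gene in replicate 1 (circles) and replicate 2 (squares), in the authors' units, with 0 for no peak. Dashed lines are the medians of all protein-coding genes with a promoter peak in both replicates, 7.94 and 4.82. Pim1 and Jak1 stand highest, while Kit, Socs2 and Jak3 lie below 2 in both replicates.

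The window of Epor held 10 sites, counting overlapping peaks of either replicate as 1 site. The gene (ENSMUSG00000006235.6, chr9:21958897-21963506, minus strand) has 2 annotated start sites, and a site called in both replicates lay at each. The site over the start at position 21962564, inside the first intron of the longer transcript, had a signal of 12.7 in replicate 1 and 6.26 in replicate 2, or 9.47 ± 4.54 (SD, n = 2). The site just upstream of the outer start at position 21963506 had 5.37 and 2.62. In each replicate the inner site was thus the stronger of the pair. By its stronger site Epor ranked 3207 of 21938 genes in replicate 1 and 4159 in replicate 2.

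The outer promoter of Epor is the one described in textbooks as bound by the erythroid factor GATA1 together with an SP1-type factor. Windows of 200 bases centred on the peaks of replicate 1 are shown from the mm10 assembly (RefSeq GRCm38.p6), 5′ to 3′ on the strand of the gene. Capitals mark bases under footprints of both replicates, here and in all sequences below.
Epor outer promoter, chr9:21963531-21963730: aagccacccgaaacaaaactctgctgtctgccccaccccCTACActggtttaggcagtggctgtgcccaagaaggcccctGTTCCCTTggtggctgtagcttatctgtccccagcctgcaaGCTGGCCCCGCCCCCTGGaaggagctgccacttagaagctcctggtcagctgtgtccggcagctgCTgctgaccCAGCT
Epor inner promoter, chr9:21962541-21962740: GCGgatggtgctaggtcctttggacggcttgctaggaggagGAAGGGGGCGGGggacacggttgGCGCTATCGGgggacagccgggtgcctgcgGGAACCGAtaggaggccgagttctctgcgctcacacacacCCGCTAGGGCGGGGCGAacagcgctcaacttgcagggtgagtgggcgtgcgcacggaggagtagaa
The outer window holds a GATA match (AGATAA, on the other strand) at positions 101 to 106, counted from 1 at the left end, with no base of it under a footprint of either replicate. A GC box (GGGCGG, on the other strand, the letters that SP1-type factors recognise) at positions 129 to 134 lay wholly under footprints of both. The core letters of the factor CTCF (AGGNGGC, on the other strand) at positions 131 to 137 share bases with this box. They too lay wholly under footprints of both. The outer window had 3 CpG pairs and the inner window 18. The inner window holds GC boxes at positions 47 to 52 and 141 to 146, each wholly under footprints of both replicates, and no GATA match.

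Away from start sites, Epor had 1 distal site in both replicates, 12.98 kb downstream of the gene start, at 1.38 in replicate 1 and 2.03 in replicate 2. Replicate 2 was the higher there, unlike at the promoters. It is shown because it was the strongest distal site of the gene in both replicates.
Epor distal site, chr9:21950423-21950622: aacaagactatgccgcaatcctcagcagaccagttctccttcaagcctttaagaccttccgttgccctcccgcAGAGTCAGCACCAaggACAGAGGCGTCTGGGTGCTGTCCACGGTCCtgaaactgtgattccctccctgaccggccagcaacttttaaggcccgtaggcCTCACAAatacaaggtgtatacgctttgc
Between it and Epor lay the promoter of Swsap1, a gene of DNA repair, with peaks of 21.5 and 10.2 and of 18.4 and 11.8, the highest in the window. A weak site in the coding sequence, 947 bases from a start and so just inside the promoter class, was called in replicate 1 alone (0.730). The nearest site outside that limit lay in the coding sequence of Socs1, 1024 bases from its start (0.806, replicate 1 alone).

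Kit (ENSMUSG00000005672.12, chr5:75574916-75656722) had the emptiest window. Its single site, the promoter peak at chr5:75574821-75575060, had a signal of 1.58 in replicate 1 and 1.28 in replicate 2, or 1.43 ± 0.213 (SD, n = 2). It ranked 10649 and 10297 of 21938 genes. No distal site was called in a window of 141.8 kb, the longest but 1 of the 10. Of its bases, 0.635% and 0.360% were listed with a false discovery rate under 0.05, against 10.9% and 3.92% for Pim1 at the other end in replicate 1.

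The upstream part of the Kit promoter window, without the transcribed leader, ran from chr5:75574841-75574915.
Kit promoter: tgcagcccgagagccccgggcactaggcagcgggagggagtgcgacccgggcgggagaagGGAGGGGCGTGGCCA
Its capitals cover a run of GC-rich letters just before the gene start. A GC box at positions 49 to 54 lay under no footprint. The larger deposited peak list added a site 0.942 kb into the gene in both replicates (0.428 and 0.756) and weak sites at 33.2 and 49.5 kb in replicate 1 (0.378 and 0.411). Outside the window, chosen after the data were seen, the strict list of replicate 1 held a peak 114 kb upstream of Kit with a signal of 0.772 and 2 footprints. Neither list of replicate 2 held a peak there. Kit is known to be read from a far upstream element bound by GATA factors in progenitors and mast cells. None of 6 mast cell marker genes had a promoter peak in either replicate, while 51.1% of all protein-coding genes had one in both. The windows of Cpa3 and Tpsb2, of these 6, each held 1 distal site called in both replicates. Which cells gave the Kit peaks was not tested.

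**Figure D2:**
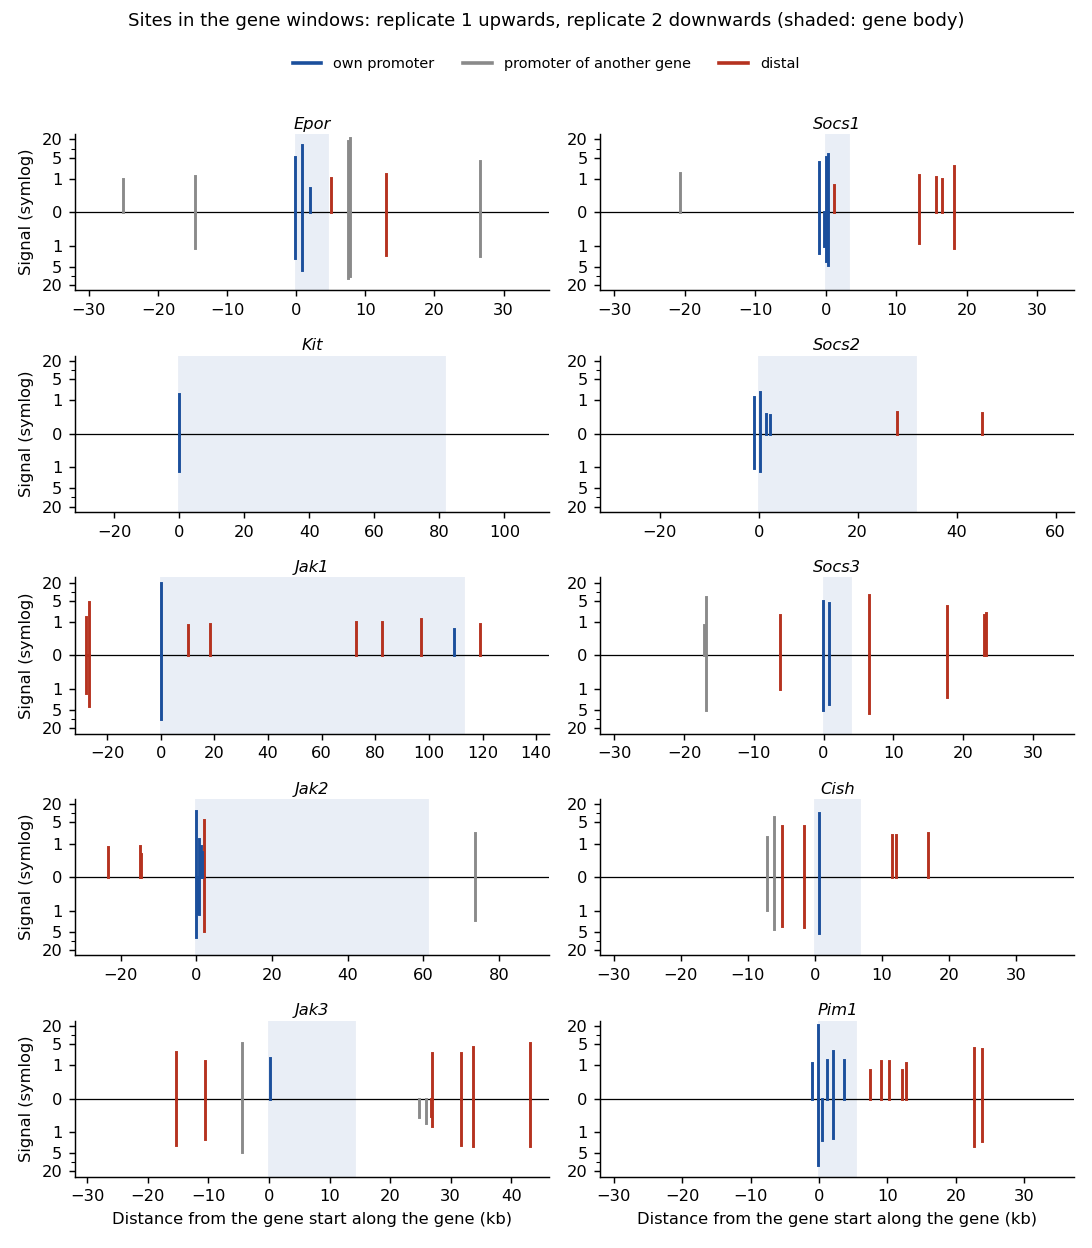
Position of each site (middle of the site, in kb from the gene start along the gene) and its signal in replicate 1 (upwards) and replicate 2 (downwards), on an axis that is linear up to 1 and logarithmic beyond. The shaded band is the gene body, and colours give the class of the site. Kit shows its promoter site alone, whereas Jak3 has distal sites called in both replicates on either side of the gene and Pim1 has a row of sites in replicate 1 alone.

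Among the kinases, the Jak1 promoter (ENSMUSG00000028530.14, chr4:101152367-101265282, minus strand) had a signal of 19.7 in replicate 1 and 9.996 in replicate 2, or 14.9 ± 6.87 (SD, n = 2). It stood above 95.1% and 92.9% of all genes. Of its 8 distal sites, the pair 26.9 and 27.8 kb upstream was called in both replicates. The stronger had 4.73 and 3.66, and the other 1.43 and 1.33. All 6 distal sites within or beyond the gene body were called in replicate 1 alone, with signals of 0.923 to 1.29. The upstream site is shown for its CpG content of 24 pairs, the highest among the distal sites called in both replicates.
Jak1 upstream site, chr4:101292121-101292320: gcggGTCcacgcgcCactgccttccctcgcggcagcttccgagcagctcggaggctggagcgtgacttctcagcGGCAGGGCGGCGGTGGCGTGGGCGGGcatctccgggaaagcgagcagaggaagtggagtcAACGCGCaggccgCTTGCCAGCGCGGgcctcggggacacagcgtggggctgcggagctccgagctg
GC boxes at positions 79 to 84 and 94 to 99 lay under footprints of both replicates. A match to the myeloid and B cell factor PU.1 (GAGGAAGT) at positions 121 to 128 did not.

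Jak2, whose kinase carries the erythropoietin signal, had a promoter signal of 11.9 in replicate 1 and 7.56 in replicate 2, or 9.75 ± 3.10 (SD, n = 2). The gene (ENSMUSG00000024789.13) lies at chr19:29251828-29313080. A distal site in its first part, 2.14 kb from the gene start and in an intron, was called at 6.12 and 4.85. The other 3 distal sites lay 14.6 to 23.4 kb upstream and were called in replicate 1 alone, at 0.697 to 0.932.
Jak2 intron site, chr19:29253871-29254070: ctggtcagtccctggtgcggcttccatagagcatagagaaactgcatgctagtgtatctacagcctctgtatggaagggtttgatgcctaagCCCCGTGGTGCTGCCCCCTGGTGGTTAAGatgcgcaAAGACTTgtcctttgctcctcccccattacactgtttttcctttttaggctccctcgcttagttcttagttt
The run of capitals in its middle matches the full consensus of CTCF, the factor that anchors chromatin loops, without a mismatch at positions 105 to 116, and all 12 of these bases lay under footprints of both replicates. That consensus was searched after the sequences had been seen.

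Jak3 (ENSMUSG00000031805.17, chr8:71676296-71690575) had the lowest mean promoter signal and the most distal sites called in both replicates. Its promoter peak had 1.68 in replicate 1. In replicate 2 the larger list held a peak there of 1.00, with a lowest false discovery rate of 0.0015, and the strict list held none. Of 7 distal sites, 6 were called in both replicates, 15.3 and 10.6 kb upstream and 26.9, 31.8, 33.6 and 43.1 kb downstream of the gene start. Their signals ran from 1.38 to 5.65 in replicate 1 and from 0.821 to 2.91 in replicate 2. These sites lie in or near the neighbours Unc13a and Fcho1, so which gene they serve was not measured.
Jak3 far downstream site, chr8:71719301-71719500: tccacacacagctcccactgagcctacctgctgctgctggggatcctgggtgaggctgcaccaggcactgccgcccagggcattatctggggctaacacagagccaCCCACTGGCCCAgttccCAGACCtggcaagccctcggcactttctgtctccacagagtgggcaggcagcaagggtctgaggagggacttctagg
This window, in an intron of Fcho1, was the strongest at 5.65 and 2.91. It holds a GATA match (AGATAA, on the other strand) at positions 83 to 88 outside footprints. A GC box at positions 71 to 76 also lay outside them. The window matches the CTCF consensus with 1 mismatch at positions 103 to 114. Of these bases 10 lay under footprints of replicate 1 and 8 under those of replicate 2.

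Around Jak3 the replicates differed at particular sites. The site 26.9 kb downstream had 2.47 in replicate 1 and 0.821 in replicate 2, a ratio of 3.00 that was the highest of the 44 sites called in both. Close by, 3 weak sites were called in replicate 2 alone, 2 of them at the promoter of B3gnt3 (0.537 and 0.716) and 1 distal (0.529). They were 3 of the 6 sites that replicate 2 alone called in all 10 windows.

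The promoter signals of the inhibitor genes ran from 1.85 to 10.1 in replicate 1 and from 1.32 to 5.73 in replicate 2. Cish had 10.1 in replicate 1 and 5.73 in replicate 2, or 7.93 ± 3.12 (SD, n = 2). Socs1 had 6.55 and 4.21, or 5.38 ± 1.65. Socs3 had 5.03 and 5.06, or 5.04 ± 0.0222, the closest pair of values among the genes. This stronger site lies over the start of a transcript not annotated as protein-coding. The site over the protein-coding start of Socs3 had 4.14 and 3.07, a ratio of replicate 1 to replicate 2 of 1.35. Equal values were not the usual relation of the replicates. Over all promoter sites called in both, the median ratio of replicate 1 to replicate 2 was 1.57, with a 5th percentile of 1.01. The ratio of 0.994 at the stronger Socs3 site lay below that percentile. The SDs given for the genes take in this difference between the libraries. Socs2 had 1.85 and 1.32, or 1.59 ± 0.3799. Cish was above Socs2 in each replicate. By their strongest sites Socs1 and Socs3 changed places between the replicates, but by its site over the protein-coding start Socs3 lay below Socs1 in both.

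In Cish and Socs2 the promoter peaks held the same arrangement, a pair of matches to the STAT consensus TTCNNNGAA separated by 2 bases. It is shown because STAT5 binds such letters and can bind as a tetramer where a pair of them lies close together. Capitals here mark the fixed letters of the consensus, not footprints.
Cish pair, chr9:107296659-107296678, plus strand: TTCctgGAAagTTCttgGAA
Socs2 pair, chr10:95416904-95416923, minus strand: TTCctgGAAagTTCctgGAA
The Cish pair ended 32 bases before the annotated start at position 107296710, and the Socs2 pair 47 bases before the start at 95416857. These are inner starts. Each gene also has an outer start upstream of its pair, at 107296026 for Cish and 95417180 for Socs2, so both pairs lay inside the gene. All 200 bases of the Cish window were annotated UTR. After this was seen, all windows of 200 bases centred on peaks were searched for a pair with that spacing. Of 20646 promoter windows of replicate 1, those of Cish and Socs2 were the 2 that held one, and likewise of 16486 in replicate 2. None of 27640 and 12351 distal windows did. With any spacing, at least 2 STAT matches were found in 26 promoter windows (0.126%) of replicate 1 and 19 (0.115%) of replicate 2.

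The footprint lists hardly touched these pairs. Of the 20 bases, 4 lay under a footprint of replicate 1 at Cish and 1 at Socs2, and none in replicate 2. The absence of a footprint does not show that the site was free. The rest of the Socs2 window that is not transcribed leader is shown with capitals for footprints of both replicates.
Socs2 promoter, chr10:95416858-95417010: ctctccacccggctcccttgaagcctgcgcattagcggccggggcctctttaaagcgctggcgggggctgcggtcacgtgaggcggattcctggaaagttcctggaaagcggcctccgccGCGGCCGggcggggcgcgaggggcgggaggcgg
The pair stands in it at positions 88 to 107, followed by GC boxes at 127 to 132 and 141 to 146. Socs2 (ENSMUSG00000020027.18, chr10:95385362-95417180, minus strand) had no distal site in both replicates. Its 2 distal sites, 27.9 and 45.0 kb downstream, were weak and called in replicate 1 alone (0.655 and 0.613). A second promoter site 0.881 kb upstream was called in both (1.29 and 1.04).

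Cish (ENSMUSG00000032578.7, chr9:107296026-107302784) had its distal sites called in both replicates upstream, 1.595 kb away at 3.76 and 3.55, and 4.92 kb away at 3.83 and 3.12. Further downstream, 3 sites 11.6 to 16.9 kb from the gene start were called in replicate 1 alone, at 1.99 to 2.26. The larger list of replicate 2 held a peak at each of the 3, at 0.927 to 1.30. The nearer upstream site is shown as the strongest distal site of the gene by the mean of the replicates.
Cish upstream site, chr9:107294331-107294530: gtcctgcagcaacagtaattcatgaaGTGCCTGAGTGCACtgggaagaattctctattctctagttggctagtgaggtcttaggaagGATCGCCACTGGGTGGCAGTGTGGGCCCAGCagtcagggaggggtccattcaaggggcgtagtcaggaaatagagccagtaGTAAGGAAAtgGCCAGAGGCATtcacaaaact
At positions 93 to 104 it matches the CTCF consensus with 1 mismatch, and all 12 bases lay under footprints of both replicates.

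Socs1 (ENSMUSG00000038037.5, chr16:10782240-10785536, minus strand) had 3 promoter sites in both replicates. The strongest lay in its intron (6.55 and 4.21), the next over the start site (5.16 and 3.23) and the third 0.995 kb upstream (3.64 and 1.76). Distal sites called in both replicates lay 13.2 kb downstream (1.34 and 0.927) and 18.2 kb downstream (2.59 and 1.15). The former window holds 2 STAT matches, TTCCTGGAA and TTCCCCGAA on the other strand, at positions 74 to 82 and 49 to 57, neither wholly under a footprint. At least 2 STAT matches were found in 49 distal windows (0.177%) of replicate 1 and 14 (0.113%) of replicate 2. The site 18.2 kb downstream is shown as the strongest distal site of Socs1.
Socs1 downstream site, chr16:10767241-10767440: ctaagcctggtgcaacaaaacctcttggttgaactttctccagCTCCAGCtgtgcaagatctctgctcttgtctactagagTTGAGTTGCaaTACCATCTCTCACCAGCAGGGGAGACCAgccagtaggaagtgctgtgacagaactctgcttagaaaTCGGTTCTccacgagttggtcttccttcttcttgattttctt
Its longest stretch of capitals, at the centre, holds a CTCF match with 2 mismatches at positions 105 to 116.

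Socs3 (ENSMUSG00000053113.3, chr11:117966079-117970047, minus strand) had 3 distal sites called in both replicates. Among them were sites 17.7 kb downstream (3.32 and 1.90) and 6.23 kb upstream (1.70 and 1.03), the latter with a STAT match. At the promoter, the site 0.736 kb into the gene (4.14 and 3.07) holds a STAT match (TTCCTGGAA, on the other strand). Of its 9 bases, 4 lay under a footprint of replicate 1 and 2 in replicate 2. The site over the gene start (5.03 and 5.06) matches the CTCF consensus without a mismatch at positions 76 to 87 of its window. All 12 of these bases lay under footprints of both replicates.

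Pim1, a serine-threonine kinase gene raised by STAT5, had the highest promoter signal of the 10 genes, with 22.1 in replicate 1 and 11.9 in replicate 2, or 17.02 ± 7.24 (SD, n = 2). It ranked 685 and 820 of 21938 genes. The gene (ENSMUSG00000024014.8) lies at chr17:29490753-29496112.
Pim1 promoter, chr17:29490441-29490640: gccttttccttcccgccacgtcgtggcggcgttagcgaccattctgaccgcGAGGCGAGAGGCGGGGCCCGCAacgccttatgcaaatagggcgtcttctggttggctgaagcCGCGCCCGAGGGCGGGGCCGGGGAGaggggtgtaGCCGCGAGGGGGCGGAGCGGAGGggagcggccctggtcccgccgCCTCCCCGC
Of its 200 bases, 79 lay under footprints of both replicates, and these take in the GC boxes at positions 123 to 128 and 157 to 162. No STAT match was found in this window, which says only that these letters are not in it.

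The Pim1 window held 13 sites, the most of the 10 genes. Its distal sites fell into 2 sets. The sites 22.6 and 23.9 kb downstream of the gene start were called in both replicates, at 3.73 and 2.91 and at 3.34 and 2.01. The 5 sites 7.46 to 12.7 kb downstream were called in replicate 1 alone at 0.848 to 1.37, and replicate 2 listed no base of them with a false discovery rate under 0.05. STAT matches were found at 2 of these 5, TTCCAGGAA at 9.001 kb, with 8 of its 9 bases under a footprint of replicate 1, and TTCTTGGAA at 10.2 kb, under none.
Pim1 downstream site, chr17:29513261-29513460: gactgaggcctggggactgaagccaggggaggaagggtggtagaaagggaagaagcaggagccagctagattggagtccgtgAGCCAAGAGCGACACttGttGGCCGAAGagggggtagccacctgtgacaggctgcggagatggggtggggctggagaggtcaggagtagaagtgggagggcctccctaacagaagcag
Its neighbour at 23.9 kb matched the CTCF consensus without a mismatch, with all 12 bases under footprints of both replicates.

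Over the 10 windows 88 sites were counted, of which 44 were called in both replicates, 38 in replicate 1 alone and 6 in replicate 2 alone. The share in both was 50%, against 49.7% of 50826 sites in the genome. By class the shares differed more. It was 55.2% at the genes' own promoter sites and 64.3% at promoters of other genes, against 69.0% of all promoter sites. At distal sites it was 42.2%, against 35.5% of all distal sites. A distal site called in both replicates was present at 8 of the 10 genes, against 43.7% of all protein-coding genes in windows made the same way, and absent at Kit and Socs2. The median number of distal sites per gene was 5, against 1 over all genes. Per 100 kb of window the 10 genes had 4.86 distal sites, against 1.97 over all genes, and 2.05 against 0.776 in both replicates. These values over all genes take in genes without a promoter peak, and distal sites were not compared with those of peaked genes alone.

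**Figure D3:**
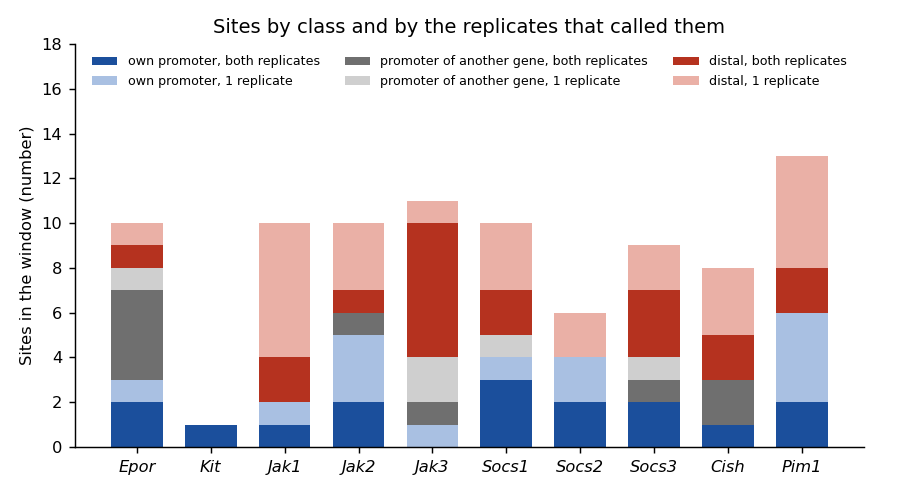
Number of sites in the window of each gene, stacked by class and by whether both replicates (dark) or 1 replicate (light) called them. Jak3 has 6 distal sites in both replicates, the most, and Kit has 1 site in all.

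The sites called in 1 replicate had the lower signals. Their median signal was 0.986 for replicate 1 alone, against 3.78 in the same replicate for sites called in both. Of the 38 sites in replicate 1 alone, 17 had a peak in the larger list of replicate 2 and 19 had bases listed there with a false discovery rate under 0.05. Of the 6 in replicate 2 alone, none had a peak in the larger list of replicate 1 and 4 had listed bases. Of the 50 peaks of replicate 2 in these windows, 44 (88.0%) met a replicate 1 peak, against 89.1% of all its peaks. In the other direction it was 45 of 83 (54.2%), against 53.1%.

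Where both replicates called a site, replicate 1 was the higher at 39 of 44, and over all such sites in the genome it was so at 88.6%. The median ratio of replicate 1 to replicate 2 was 1.59 at the 16 promoter sites of the genes and 1.28 at the 19 distal sites. Over all sites in both replicates it was 1.57 at promoters and 1.31 at distal sites, so the 10 genes lay close to the genome in each class. At Epor the 2 promoter sites had ratios of 2.03 and 2.05, and the distal site had 0.684, the lowest of the 44. These ratios rest on 1 library each, and their cause was not tested.

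**Figure D4:**
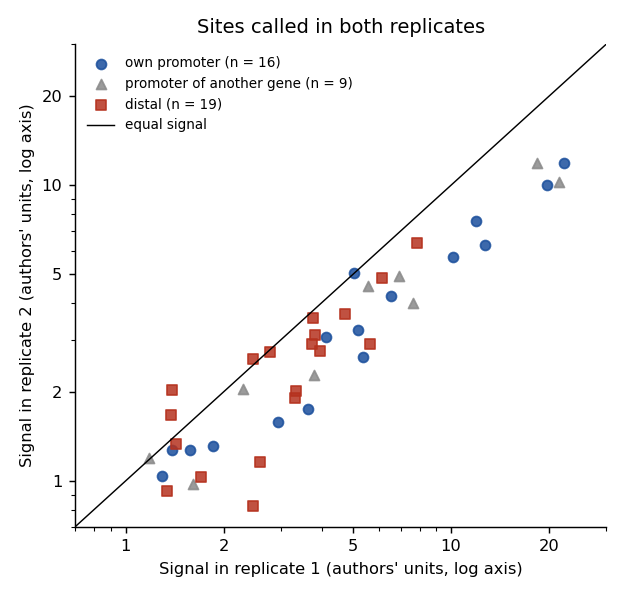
Signal in replicate 1 against replicate 2 at the 44 sites called in both, on logarithmic axes in the authors' units, with the line of equal signal. Most points lie below the line, and the 5 above it are Epor distal, 2 Jak3 distal, Socs3 promoter and Rgl3 promoter sites.

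Footprints were found in 70 of 83 peaks of replicate 1 (84.3%, against 89.5% of all peaks) and in 44 of 50 of replicate 2 (88.0% against 88.4%). The windows were searched on both strands for 15 consensus motifs. STAT matches were found in 3 of 16 promoter sites of the genes called in both replicates (18.8%), at Cish, Socs2 and Socs3, against 3.74% of all promoter windows of replicate 1 and 3.37% of replicate 2. At distal sites the count was 3 of 19 (15.8%), at Socs1, Socs3 and Jak3, against 5.35% and 5.10% of all distal windows. None of these matches lay wholly under a footprint. Among sites called in replicate 1 alone, STAT letters were also found at 2 sites of Jak2, 1 of Socs1 and 2 of Pim1. GATA matches were found in 1 of 16 promoter sites (6.25%, against 6.57% and 4.71%) and 3 of 19 distal sites, all 3 at Jak3 (15.8%, against 18.1% and 13.5%). The composite of an E-box part and GATA bound by TAL1 and GATA1 (CTG, then GATAA after 7 or 8 bases) was found in none of them.

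GC boxes were found in 12 of 16 promoter sites (75.0%, against 52.9% and 59.8% of all promoter windows of the replicates) and 6 of 19 distal sites (31.6%, against 13.1% and 16.5%), and at 6 and 2 of these sites a match lay wholly under footprints of both replicates. The median GC content was 67% at promoters and 59% at distal sites, against 64% and 52% over all windows of replicate 1 and 66% and 54% over those of replicate 2. The full CTCF consensus with up to 1 mismatch was found in 6 of 19 distal sites (31.6%), at Jak2, Jak3, Cish and Pim1, against 31.7% and 41.2% of all distal windows of the replicates. In all 6 at least 6 of the 12 bases lay under footprints of both replicates. At promoter sites the same search found 3 of 16 (18.8%), at Socs1 and Socs3, against 8.81% and 8.47% of all promoter windows. In these 3 as well, at least 6 of the 12 bases lay under footprints of both replicates. The CTCF core alone (AGGNGGC) was found in 7 of the 19 (36.8%), against 29.7% of the distal windows of replicate 1 and 37.1% of replicate 2.

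**Figure D5:**
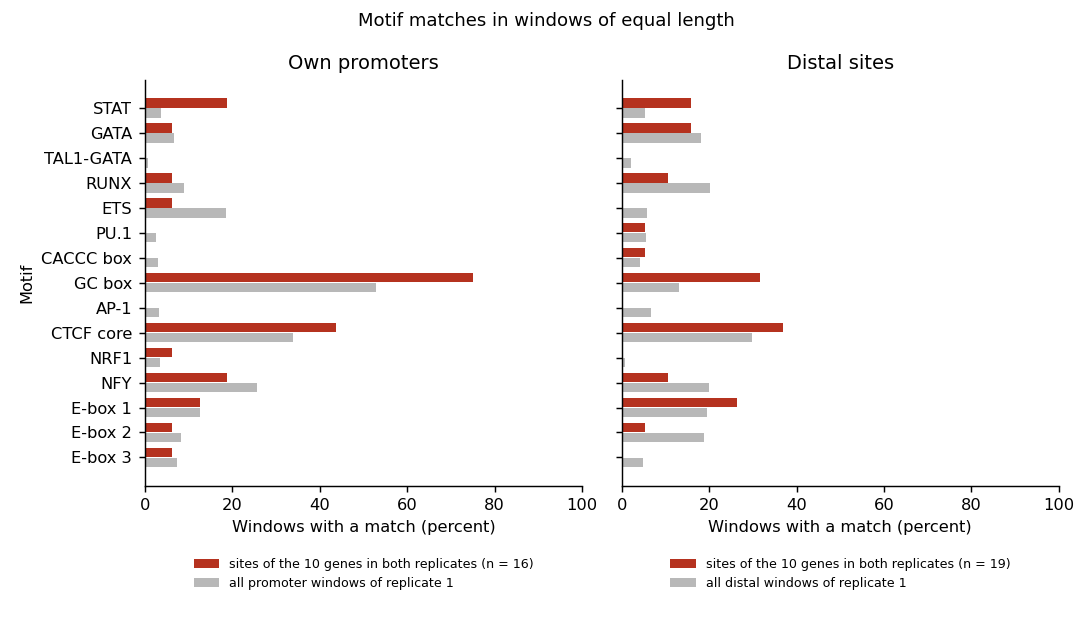
Percent of 200-base windows with a match to each of the 15 motifs, for sites of the 10 genes called in both replicates (red) and for all windows of the class in replicate 1 (grey). At promoters STAT stands at 18.8% against 3.74%, which rests on 3 sites.

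For the motifs that follow, the counts are over the same sites and the shares set beside them are over all windows of replicate 1. The ETS letters CCGGAA were found at 1 of 16 promoter sites, at Socs1, against 18.6% of all promoter windows. The RUNX letters TGTGGT were found at 2 of 19 distal sites (10.5%), against 20.2%. At the Cish site 4.92 kb upstream they lay wholly under footprints of both replicates. The NFY letters CCAAT were found at 3 of 16 promoter sites (18.8%), against 25.6%. The E-box forms plotted as 1, 2 and 3 differ in their middle bases. The first, CAGCTG, was found at 5 of 19 distal sites (26.3%), against 19.4%. The second, CAGATG, was found at 1 of these (5.26%), against 18.8%. The third, CACGTG, was found at none of them, against 4.90%. AP-1 letters, TGANTCA, were found at none of the 16 promoter and 19 distal sites called in both replicates, against 3.12% and 6.78%. The CACCC box, CCACACCC, known as the site of the erythroid factor KLF1, was found at 1 of the 19 distal sites called in both replicates, at Jak3 (5.26%), against 4.28% of all distal windows of replicate 1. The NRF1 letters GCGCATGC were found at 1 of 16 promoter sites (6.25%), over the start of Socs1, against 3.54% of all promoter windows. There all 8 bases lay under a footprint of replicate 2 and 5 under 1 of replicate 1. These letters overlap in part, since a GC box and a CTCF core can share bases, as at the Epor inner and outer promoters.

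Other genes of the pathway were read from a list of 65. Of these, 49 had a promoter peak in both replicates, against 51.1% of all protein-coding genes. All 13 adaptor and phosphatase genes had one, among them Grb2 (22.9 and 12.3), which links receptors to RAS, Cbl (19.7 and 10.6), a ubiquitin ligase of activated receptors, and Sh2b3 (13.5 and 7.02), which damps KIT and erythropoietin signals. All 7 STAT genes did as well, from Stat3 (29.3 and 20.4) down to Stat4 (1.17 and 0.724). Stat5a had 6.08 and 3.19 and Stat5b had 3.96 and 2.61, so both lay below Stat3 in each replicate. The 8 other SOCS and PIAS genes, 5 other kinase genes and 7 target genes each had a peak in both. Pias4, of a family that restrains STAT proteins, had 31.9 and 17.2, and the survival gene Bcl2l1 had 14.8 and 8.33.

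Of 15 other receptor genes 11 had a promoter peak in replicate 1 and 6 in both replicates, against 51.1% of all protein-coding genes in both, Il6st (7.03 and 4.88) and the erythropoietin receptor partner Tfr2 (4.599 and 3.31) among them. Csf3r, which encodes the receptor of a granulocyte growth factor, had none in either. Of 10 ligand genes 3 did: Epo, Gh and Osm. The strongest peak counted for the Epo promoter had 17.6 and 11.4. The hormone is known to come mainly from kidney and liver. Whether this peak belongs to Epo or to a neighbouring gene was not tested, nor was it for the other genes of the list. Kitl, which encodes the ligand of KIT, had 0.613 in replicate 1 alone.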

How the data were processed

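DNase-seq of spleen was read from files made for each library by itself, on mm10 per the labels. The aligner, peak caller and footprint caller were not given in the sources used here. Peak heights are the signal values deposited by the authors, on a scale and at a read depth that are unknown here, so heights have no counting interval. The strict list is the deposited peak list with fewer bases, and the other is the larger list. A further file deposited by the authors holds false discovery rates, read as p-values, for stretches of bases below 0.05. The score column of the deposited footprints was the constant 0.01, so footprints could not be ranked. Reads of the F1 were placed on 1 reference genome, and the parental alleles were not separated.

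Windows, start sites and annotation came from GENCODE M21, and a distal site lay over 1000 bases from every start site of a protein-coding gene. Peaks were joined into a site if they overlapped by at least 1 base. Sequences came from GRCm38.p6, clipped to at most 30 bases of annotated UTR. Named were all 10 genes, each with its strongest promoter and distal peaks, except 1 distal site that is not reported here. A gene of the pathway list is also not reported here. The genes, the pathway list, the markers and the motifs were chosen with earlier results of these data known. The overlap and motif searches were tested on simulated data. Python 3.11.15 and numpy 2.4.6 were used. Whether the replicates share animals is not stated beyond their common donor entry, so the spread may be partly technical.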

Additional observations from a re-analysis of the deposited data

How the results depend on the processing

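No paired analysis was possible because the design has 1 group. The count of genes with a promoter peak in both replicates was 9, and it was 7 to 10 over the other peak lists, promoter windows and start sites tried (10 with the larger list, 7 with the peaks above the median of each list). Without replicate 1 or 2 the count in the remaining replicate was 9 or 10. The mean over the replicates of the median promoter signal was 6.87, and 5.39 to 8.34 when each replicate was left out. The number of distal peaks in the windows, a mean of 32.5 over the replicates, moved most. It was 16.5 with the peaks above the median of each list, 15.0 with gene bodies widened by 10 kb and 87.5 with 100 kb, and 20 to 45 when each replicate was left out. These settings take in fewer or more bases or peaks by construction. The share of peaks with a footprint was 86.2%, and 98.4% among the peaks above the median, 91.3% with equal numbers of the strongest peaks and 84.3% to 88.0% when each replicate was left out. The share of replicate 2 peaks overlapping replicate 1 was 83.3% to 93.5% under all 6 alternatives. Added after the data were seen were the CTCF consensus with up to 1 mismatch (31.6% of distal sites) or 2 (57.9%), the STAT pair and the wider look around Kit. Weak sites in 1 replicate cannot be called absent in the other, since the read depth is unknown.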
